A study of Drosophila melanogaster with 8 samples.

Results

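The retinin-like gene cluster of Drosophila melanogaster is a run of small genes on chromosome 3L that includes retinin (CG13057). The listed genes are retinin, CG13040, CG13041, CG13043, CG13044, CG13059, CG13060, CG13063, CG13065 and CG13068, and they were taken by name. They had been selected on their coverage in these same libraries, so that every temperature and time difference of theirs is given here as a description. They were fitted with all other transcripts, but no p-value is given for a single member, and counts of calls among them stand only beside the share of all transcripts and support nothing. Of the 10 genes, 9 have a row in the coverage table, with 1 transcript each, among 11500 genes and 18387 transcripts in all, and no row was found for CG13043.

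Retinin is one of the most abundant proteins of the corneal lens, the transparent cuticle that covers each facet of the compound eye. Together with wax it forms the layer of nipple-like nanostructures on the surface of the cornea, which reduces reflection and repels water. The lens is secreted during pupal life, and its other main proteins are Crystallin (Crys), Cpr66D and Cpr72Ec, which belong to families of cuticle proteins. The genes named for their likeness to retinin are much less studied, and the protein sequences behind that likeness were not analysed here.

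PolyA+ RNA from whole heads of Canton-S flies, a standard wild-type strain, was sequenced, with the flies kept at a temperature of 18°C, 25°C or, for the warmest group, 29°C. The study's methods describe crosses raised at 25°C, with newborn adults then left there or moved to 18°C or 29°C. Neither the rearing nor the days at each temperature are stated for these libraries in particular. There was 1 library for each temperature and time point, at ZT3, ZT15 and ZT23 for 18°C and 29°C and at ZT3 and ZT15 for 25°C, where ZT is the number of hours after lights on. The labels name the last time point ZT23 and the study's methods ZT21. Libraries of different time points stand in for replicates (n = 3 at 18°C, n = 2 at 25°C and n = 3 at 29°C), so the spread between them includes changes over the day. The label of the tissue was checked on ninaE, the gene of the main photoreceptor opsin Rh1, which ranked 1 among all transcripts by mean coverage. The library of 29°C at ZT15 stood apart, with a summed scaled coverage of 881 for 8 genes of body tissues outside the head, against 1.11 to 2.58 elsewhere, and with 590 transcripts at 0, against 1435 to 1612.

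Levels are the deposited average coverage per base pair of a transcript, scaled so that each library sums to 1000000, and are called scaled coverage. Coverage per base pair can be compared between genes of different length. Differences are on the log2(scaled coverage + 1) scale, which understates the change of genes with low coverage. A transcript entered the fit when its mean scaled coverage over the 8 libraries was at least 1. Of the 9 member genes with a row, 7 passed this filter, while CG13040 and CG13060 did not. A call is a Benjamini-Hochberg adjusted p under 0.05 from limma, a linear model fitted across all 14799 transcripts that passed.

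In the BDGP6 annotation the 10 genes lie on 3L between 16269392 (the start of CG13068) and 16332789 (the end of retinin), a span of 63.4 kb. They are 520 to 1675 bp long, with 6 on the plus strand and 4 on the minus strand. The genes are not an unbroken block, since 28 other annotated genes lie between them, with RNA genes and transposable elements counted among these. Retinin itself is on the plus strand from 16331933 to 16332789. CG13065 (plus strand, 16277435 to 16278180), CG13044 (minus strand, 16302490 to 16303178) and CG13063 (plus strand, 16306600 to 16307205) have their midpoints 54.1, 29.1 and 25.0 kb to the left of its start, and CG13041, CG13060, CG13059 and CG13040 have theirs 12.7, 11.8, 7.94 and 6.01 kb to the left. CG13044 overlaps asRNA:CR45890 on the other strand, CG13041 overlaps asRNA:CR45663 and lncRNA:CR45664, CG13060 overlaps lncRNA:CR45664, and CG13040 overlaps CG13039. None of these partners has a row in the table, and whether the coverage was made with regard to strand is not given in the sources used here, so reads of the partners cannot be told apart from those of these 4 genes.

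Retinin was by far the most abundant of the genes and stayed within a narrow range at all temperatures. Its scaled coverage was 4457, 4275 and 5170.5 at 18°C (ZT3, ZT15 and ZT23), 4780.4 and 5132 at 25°C (ZT3 and ZT15), and 4399.7, 3985 and 3549 at 29°C (ZT3, ZT15 and ZT23). By its mean over the 8 libraries it ranked 11 among all 18387 transcripts. The highest library was 1.46 times the lowest, and the libraries of 18°C and 29°C overlapped. The 18°C mean was 4634 ± 473 (SD, n = 3), the 25°C mean 4956 ± 249 (SD, n = 2) and the 29°C mean 3978 ± 426 (SD, n = 3). Between 18°C and 29°C the log2 difference was -0.22, and it lay between -0.30 and -0.017 under all the alternatives tried. In whole heads, fewer cells of a type and less RNA per cell cannot be told apart.

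The pattern of CG13044, CG13065 and CG13063 was different, with high coverage at 18°C and low coverage at 25°C and 29°C. CG13044 had a scaled coverage of 205, 322 and 112 at 18°C (ZT3, ZT15 and ZT23), 47.0 and 55.1 at 25°C (ZT3 and ZT15), and 5.59, 31.4 and 22.9 at 29°C (ZT3, ZT15 and ZT23). All libraries at 18°C were above those at 25°C, which were in turn above those at 29°C. The mean was 10.7 times higher at 18°C than at 29°C, 213 ± 105 (SD, n = 3) against 20.0 ± 13.2 (SD, n = 3), and the log2 difference was -3.51. The spread was wide at both temperatures, and the lowest library at 18°C was ZT23 whereas the lowest at 29°C was ZT3.

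CG13065 had a scaled coverage of 74.2, 49.2 and 29.9 at 18°C (ZT3, ZT15 and ZT23), 7.42 and 7.40 at 25°C (ZT3 and ZT15), and 1.55, 5.05 and 2.24 at 29°C (ZT3, ZT15 and ZT23). The temperatures did not overlap here either. The mean was 51.1 ± 22.2 (SD, n = 3) at the lowest temperature and 2.95 ± 1.85 (SD, n = 3) at the highest, a ratio of 17.3. The log2 difference of -3.73 was the largest among the 7 genes that passed the filter. With 0.1 in place of 1 added before the log, that of CG13063 was larger (-4.19, against -4.15 for CG13065). CG13063 had a scaled coverage of 49.2, 33.6 and 15.3 at 18°C (ZT3, ZT15 and ZT23), 4.52 and 1.30 at 25°C (ZT3 and ZT15), and 1.36, 2.40 and 1.05 at 29°C (ZT3, ZT15 and ZT23). For this gene the drop was between 18°C and 25°C, and the libraries of 25°C and 29°C overlapped. Its means at 18°C and 29°C, 32.7 ± 17.0 (SD, n = 3) and 1.60 ± 0.70 (SD, n = 3), were 20.4 times apart, with a log2 difference of -3.58.

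CG13041 had the same order of temperatures at a much lower level. Its scaled coverage was 8.10, 6.72 and 3.74 at 18°C (ZT3, ZT15 and ZT23), 1.88 and 3.19 at 25°C (ZT3 and ZT15), and 1.20, 2.66 and 2.67 at 29°C (ZT3, ZT15 and ZT23). All libraries at 18°C were above all others, and those of 25°C and 29°C overlapped. The log2 difference between 18°C and 29°C was -1.16, for means of 6.18 ± 2.23 (SD, n = 3) and 2.18 ± 0.85 (SD, n = 3). Without 18°C at ZT3, 18°C at ZT15 or 29°C at ZT3 the log2 differences were -0.97, -1.09 and -0.92.

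CG13059 went the other way. Its scaled coverage was 1.52, 0.50 and 0.50 at 18°C (ZT3, ZT15 and ZT23), 1.21 and 1.67 at 25°C (ZT3 and ZT15), and 5.06, 3.69 and 5.47 at 29°C (ZT3, ZT15 and ZT23). All libraries at 29°C were above all libraries at the lower temperatures, and 18°C and 25°C overlapped. The log2 difference between 18°C and 29°C was 1.67, and the mean rose from 0.84 ± 0.59 (SD, n = 3) to 4.74 ± 0.93 (SD, n = 3). CG13059 is a gene of low coverage, with a mean at 18°C under the filter minimum of 1, and is on the same strand as retinin.

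For CG13068, CG13060 and CG13040 the libraries of different temperatures overlapped or the coverage was close to 0. CG13068 had a scaled coverage of 5.26, 3.48 and 2.14 at 18°C (ZT3, ZT15 and ZT23), 2.94 and 2.34 at 25°C (ZT3 and ZT15), and 3.27, 2.26 and 2.78 at 29°C (ZT3, ZT15 and ZT23). The range at 18°C held all other libraries, and the log2 difference between 18°C and 29°C was -0.25. CG13060 lay between 0.28 and 1.12 in the 8 libraries, with overlap of all temperatures. CG13040 was lower still, at 0.085, 0.29 and 0.13 at 18°C (ZT3, ZT15 and ZT23) and at most 0.048 elsewhere, and it was listed at 0 in both libraries at 25°C and in that of 29°C at ZT23.

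**Figure D1:**
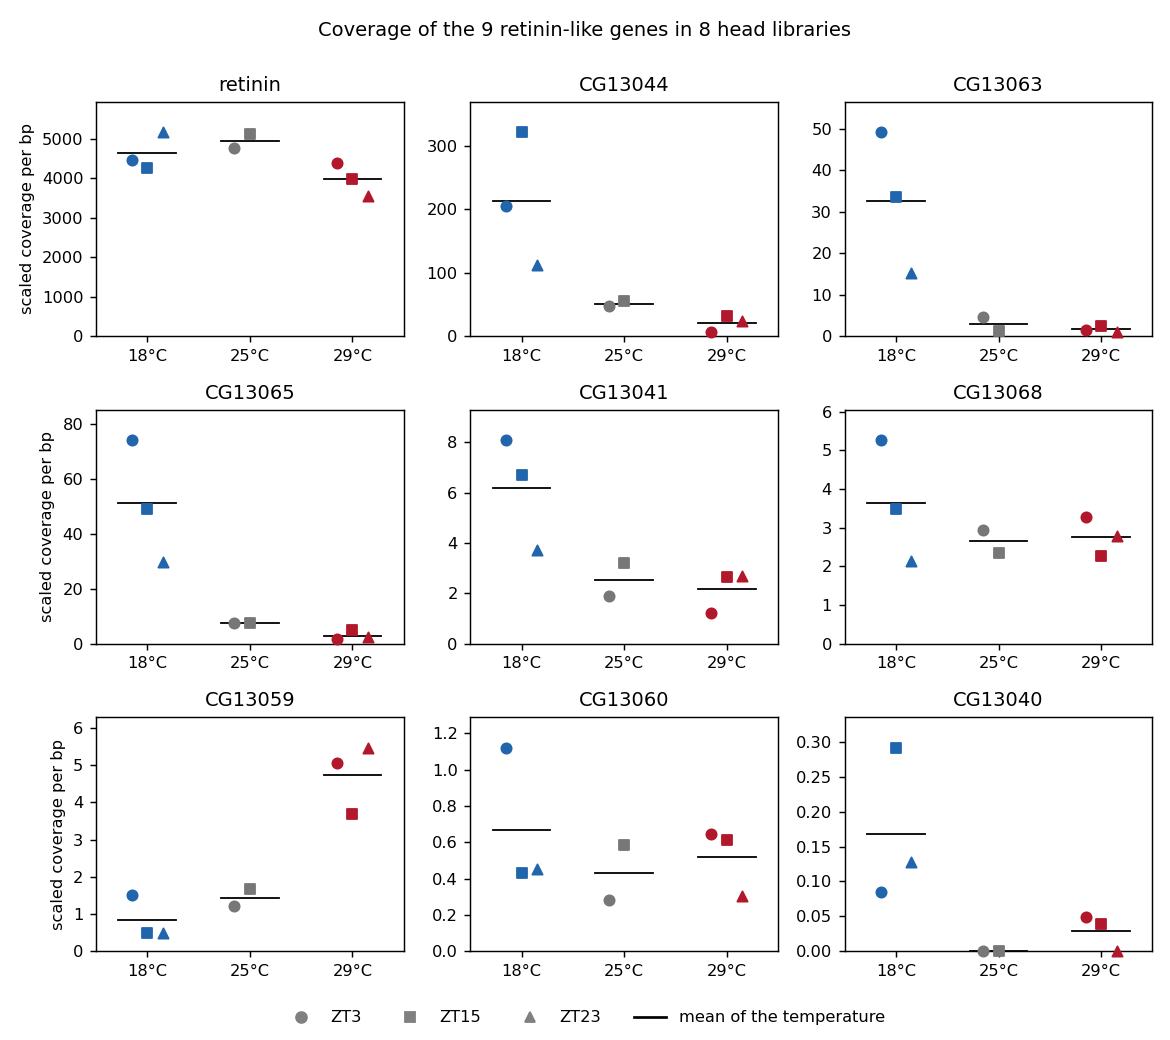
Scaled coverage per bp (linear vertical axes, each panel with its own range) of the 9 genes with a row, by temperature, with 1 point for each library, shaped by time point, and the mean of each temperature as a line. Retinin stays between 3549 and 5170.5, CG13044, CG13063, CG13065 and CG13041 are highest in the 3 libraries at 18°C, and CG13059 is highest in the 3 libraries at 29°C.

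Ordered by mean coverage at 18°C, the genes ran from retinin through CG13044, CG13065, CG13063, CG13041, CG13068, CG13059 and CG13060 to CG13040. Retinin, CG13044 and the pair of CG13065 and CG13063 did not overlap with one another in the libraries at 18°C, while CG13065 and CG13063 overlapped, as did CG13041 and CG13068. At 29°C retinin and CG13044 were again the highest on average, with CG13059 in the third place. Retinin made up 91.1% to 96.9% of the summed coverage of the 9 genes at 18°C, 98.6% and 98.7% at 25°C and 98.8% to 99.6% at 29°C. The sum of the other genes fell from 345, 416 and 164 at 18°C (ZT3, ZT15 and ZT23) to 65.2 and 71.6 at 25°C (ZT3 and ZT15) and 18.7, 48.1 and 37.5 at 29°C (ZT3, ZT15 and ZT23). CG13044 alone made up most of the sum of the other genes at 18°C, so this sum does not describe each of them.

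Of the 7 members tested, 4 were called lower at 29°C than at 18°C (CG13041, CG13044, CG13063 and CG13065) and 1 was called higher (CG13059), against 18.0% of all transcripts called lower and 11.3% called higher. The same 5 genes were those whose libraries of 18°C and 29°C did not overlap, 4 with lower values at 29°C and 1 with higher values, against 30.5% and 19.4% of all transcripts. Without the library of 29°C at ZT15 the counts were again 4 lower and 1 higher, and without 18°C at ZT3, 18°C at ZT15 or 29°C at ZT3 CG13041 was not among the calls. These are the values on which the genes were chosen, and nothing is read from the counts. The median log2 difference of the 7 members was -1.16, and that of all transcripts was -0.083. Scaling to the 75th percentile moved the median of all transcripts to 0.11 and the percentage of calls that were higher from 38.5% to 68.7% (52.9% with quantile normalization), so that small differences such as those of retinin and CG13068 depend on the scaling, although their sign did not change.

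Between 18°C and 25°C, limma called 2 of the 7 members lower (CG13063 and CG13065) and 0 higher. Of all transcripts 6.62% were called lower and 1.59% higher. At an unadjusted p under 0.05 there were 4 of the 7 members, against 4626 of all 14799 transcripts. The log2 differences were -3.09 for CG13063, -2.54 for CG13065, -1.92 for CG13044, -0.998 for CG13041, -0.29 for CG13068, 0.10 for retinin and 0.45 for CG13059. That of retinin changed sign under some alternatives (-0.088 to 0.34), and 25°C has no library at ZT23. Of all calls in this contrast 19.4% were higher, and 74.8% after scaling to the 75th percentile or 60.8% with quantile normalization. Without the library of 18°C at ZT3, 18°C at ZT15 or 25°C at ZT3, 0 members were called, but the transcripts called in all also dropped from 1214 to 5, 7 and 1, while the log2 differences lay between -3.72 and -2.73 for CG13063 and between -2.54 and -2.23 for CG13065. Without 29°C at ZT3, 1 member and 89 transcripts in all were called. As these values also chose the genes, nothing is read from these counts.

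Between 25°C and 29°C, 0 of the 7 members were called in limma, against 0.574% of all transcripts lower and 0.358% higher. At an unadjusted p under 0.05 there were 4 members, against 3645 of all 14799 transcripts, and nothing is read from this either. The log2 differences were -1.59 for CG13044, -1.19 for CG13065, -0.49 for CG13063, -0.32 for retinin, -0.17 for CG13041, 0.045 for CG13068 and 1.23 for CG13059. The sign of CG13063 (-1.12 to 0.14), CG13041 (-0.44 to 0.11) and CG13068 (-0.14 to 0.17) changed under some alternatives, and CG13059 was called without the library of 25°C at ZT15 or 29°C at ZT15 (1.37 in each case). The contrasts share their libraries, so their values are not independent of each other. CG13063, CG13041 and CG13065 had most of their difference between 18°C and 25°C, and CG13059 most of it between 25°C and 29°C. For CG13044 the 2 parts were closer, at -1.92 and -1.59.

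The differences of single pairs of libraries at the same time point had the same sign at all 3 times for CG13044, CG13065, CG13063, CG13041, retinin and CG13059. The ratio of 18°C to 29°C was 36.7 at ZT3, 10.2 at ZT15 and 4.88 at ZT23 for CG13044. For CG13065 it was 48.0, 9.74 and 13.3 at ZT3, ZT15 and ZT23, and for CG13063 36.2, 14.0 and 14.5. For these 3 genes the ratio was therefore largest at ZT3. For retinin the ratio was instead smallest at ZT3, with values of 1.01, 1.07 and 1.46 at ZT3, ZT15 and ZT23. The log2 difference of CG13059 was 1.27, 1.65 and 2.11 at these times. CG13068 was lower at 29°C at ZT3 and ZT15 (log2 differences of -0.55 and -0.46) and higher at ZT23 (0.26).

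**Figure D2:**
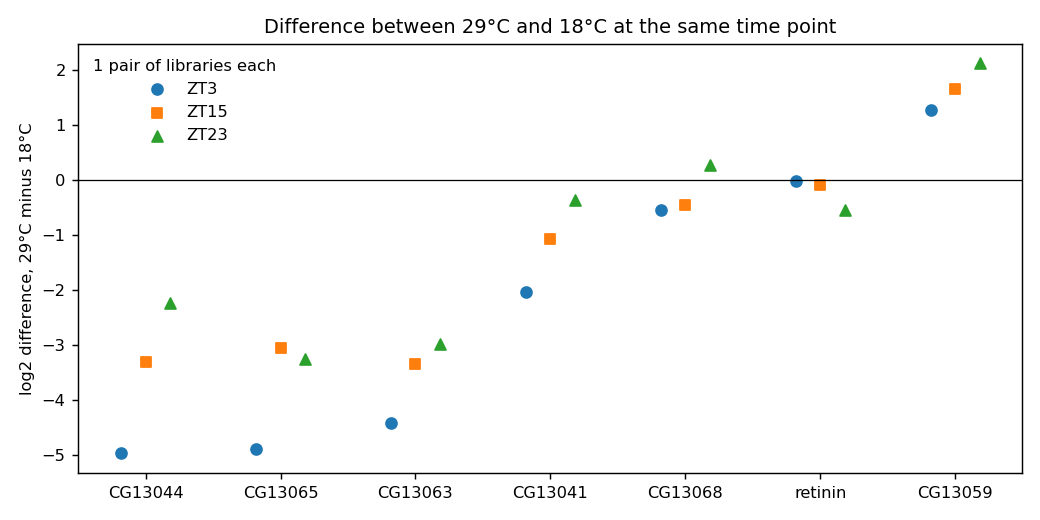
Log2 difference of 29°C minus 18°C on the log2(scaled coverage + 1) scale for the 7 members that passed the filter, with 1 point for each pair of libraries at the same time point. CG13044, CG13065 and CG13063 lie between -4.97 and -2.24, retinin between -0.54 and -0.019, and CG13059 between 1.27 and 2.11.

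Over the day, the steps of the members differed between temperatures. From ZT3 to ZT15, CG13044 rose by 0.65 at 18°C, 0.23 at 25°C and 2.30 at 29°C on the log2 scale. CG13065, CG13063 and CG13041 had negative steps at 18°C (-0.58, -0.54 and -0.24) and positive ones at 29°C (1.25, 0.53 and 0.73). From ZT3 to ZT23 at 18°C the log2 steps were -1.28 for CG13065, -1.62 for CG13063, -0.94 for CG13041, -0.87 for CG13044 and 0.21 for retinin. Each step compares 1 library with 1 other, so none of them has a replicate. With temperature in the model, limma called 0 of the 7 members between ZT3 and ZT15, ZT3 and ZT23 or ZT15 and ZT23, with 0, 2 and 0 at an unadjusted p under 0.05. In the same 3 contrasts 0.0%, 0.0% and 0.0% of all transcripts were called, with 3506, 2196 and 3550 of 14799 at an unadjusted p under 0.05. As these fits called no transcript at all, the lack of calls cannot show that the members are steady over the day.

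The members that fell with temperature were correlated with each other across libraries, which includes the temperature differences for which they were chosen. Over the 8 libraries, Pearson's r of the log2 values was 0.96 for CG13063 and CG13065, 0.95 for CG13044 and CG13065, and 0.91 for CG13041 with either CG13044 or CG13065. CG13059 had negative values with these genes (-0.84 with CG13044 and -0.82 with CG13065), and retinin had 0.36 with CG13065 and -0.67 with CG13059. The libraries share their temperature and their scaling, and these values are a description of that shared pattern. Within 18°C the genes did not all move alike. From ZT3 to ZT15, CG13044 stepped by 0.65, and CG13065, CG13063 and CG13041 by -0.58, -0.54 and -0.24.

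The genes that lie among and around the members were looked at next, as a list taken by position only: all annotated genes between the members and 10 on either side. Of 48 such genes, 26 have a row and 14 passed the filter, with 17 transcripts. In limma, 10 of the 14 genes were lower at 29°C than at 18°C and 1 was higher, against 18.0% of all transcripts called lower and 11.3% called higher. All 7 genes that lie between the members were lower. Among those called lower, CG13062, CG34247, CG13042 and CG13046 had a mean under 1 at 29°C (0.44, 0.52, 0.89 and 0.94). These 4 passed the filter through the lower temperatures, CG13062 through 18°C alone, so it favoured a call of lower at 29°C for them. The median log2 difference was -1.17 for the 17 transcripts, against -0.083 for all transcripts, and the libraries of 18°C and 29°C did not overlap for 10 genes in the lower and 1 in the higher direction, against 30.5% and 19.4% of all transcripts. Lower coverage at 29°C was thus not particular to the listed members in this stretch of 3L. Whether any of these neighbours is itself like retinin in its protein sequence was not analysed.

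CG13056, which starts 524 bp after the end of retinin on the same strand (16333313 to 16333782), had the largest difference among the neighbours. Its scaled coverage was 93.2, 67.7 and 48.6 at 18°C (ZT3, ZT15 and ZT23), 19.4 and 8.59 at 25°C (ZT3 and ZT15), and 4.11, 9.09 and 3.56 at 29°C (ZT3, ZT15 and ZT23). It fell by 3.47 on the log2 scale (SE 0.38, adjusted p = 0.000914 from limma). All libraries at 18°C were above all others, and those of 25°C and 29°C overlapped. Retinin next to it had a log2 difference of -0.22, so 2 genes side by side differed widely in this measure.

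Nplp3, a neuropeptide-like precursor gene that lies between CG13062 and CG13041, was the only gene of the stretch with a higher mean coverage than retinin. Its scaled coverage was 10135, 9461 and 8080.5 at 18°C (ZT3, ZT15 and ZT23), 5937 and 5714 at 25°C (ZT3 and ZT15), and 2996, 3992 and 3763 at 29°C (ZT3, ZT15 and ZT23). It fell by 1.37 on the log2 scale (SE 0.14, adjusted p = 0.000778 from limma), and the temperatures did not overlap. At 18°C its coverage was above that of retinin in every library, and at 29°C it was below that of retinin at ZT3 and above it at ZT15 and ZT23.

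The other neighbours that fell between 18°C and 29°C were CG34247 (log2 difference -2.10), CG13042 (-2.07), CG4962 (-1.61), CG13071 (-1.56), CG13038 (-1.48), CG13046 (-1.28), CG13067 (-1.17) and CG13062 (-1.13), with adjusted p from limma between 0.00136 and 0.0145. CG4962 had the highest coverage of these 8 genes, with a mean of 78.6 over the 8 libraries. The gene called higher was Tcs3, a tRNA modification gene 20.7 kb to the right of retinin, which was higher by 0.64 on the log2 scale (adjusted p = 0.0160 from limma) and is named here after its value was seen. It overlaps Pdh, and without the library of 18°C at ZT3 the log2 difference was 0.52 (adjusted p = 0.0654 from limma). The genes not called were l(3)72Dr (-0.060, adjusted p = 0.690), Golgin104 (-0.13, adjusted p = 0.405) and Pdh, a photoreceptor dehydrogenase gene of the pigment cells (-0.48, adjusted p = 0.283), and these lie toward the ends of the stretch. Between 18°C and 25°C, 5 neighbours were lower (CG13056, CG34247, CG13071, CG13062 and Nplp3) and 0 higher in limma. Of all transcripts 6.62% were called lower and 1.59% higher there. CG13062, with means of 2.12 at 18°C and 0.36 at 25°C, passed the filter through 18°C alone, so the filter favoured its lower call at 25°C. An unadjusted p under 0.05 was reached by 12 of the 17 neighbouring transcripts and by 4626 of all 14799. With a replicate block by time point 11 neighbours were lower, while the transcripts called lower in all rose from 979 to 3139. Without 18°C at ZT3, 18°C at ZT15 or 25°C at ZT3, 0 neighbours were called, in fits that called only 5, 7 and 1 transcripts in all, and without 29°C at ZT3 1 neighbour was called, of 89 transcripts. The log2 difference of CG13056 was -2.29 with all libraries and -2.06, -2.29 and -2.84 in the first 3 of these fits, and that of Nplp3 was -0.66, against -0.59, -0.64 and -0.68. Between 25°C and 29°C limma called 0 neighbours, against 0.574% of all transcripts lower and 0.358% higher. There, 3 of the 17 neighbouring transcripts and 3645 of all 14799 had an unadjusted p under 0.05.

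**Figure D3:**
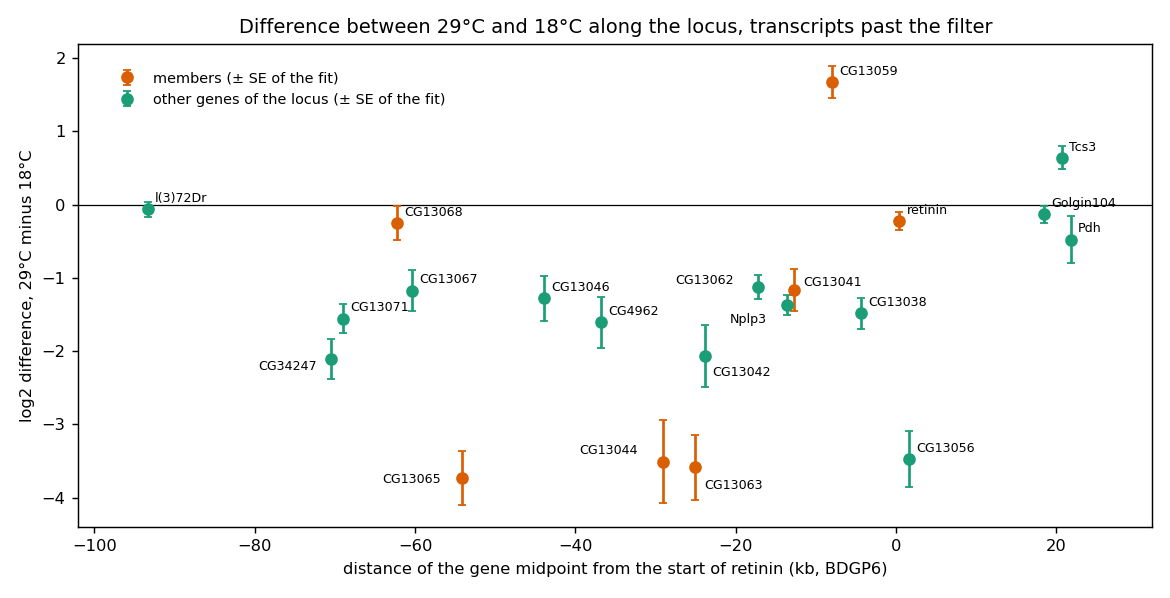
Log2 difference of 29°C minus 18°C (vertical axis, with the SE of the limma fit as bars) against the distance of each gene from the start of retinin in kb (BDGP6), for the 7 members and the 14 other genes of the stretch that passed the filter. The other genes between the members lie between -2.07 and -1.13, retinin at -0.22 and CG13059 at 1.67.

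Among the corneal lens genes, retinin and Crys differed. Crys, which encodes Crystallin, had a scaled coverage of 149, 117 and 91.8 at 18°C (ZT3, ZT15 and ZT23), 51.1 and 43.7 at 25°C (ZT3 and ZT15), and 13.7, 19.4 and 25.4 at 29°C (ZT3, ZT15 and ZT23). It fell by 2.57 on the log2 scale between 18°C and 29°C (SE 0.24, adjusted p = 0.000638 from limma), and by 1.29 between 18°C and 25°C (adjusted p = 0.0370 from limma), with no overlap between temperatures. Between 25°C and 29°C the log2 difference was -1.28 (adjusted p = 0.0616 from limma). Cpr66D was close to the filter minimum of 1, between 1.58 and 2.12 in the 8 libraries, and differed by 0.038 between 18°C and 29°C on the log2 scale (SE 0.11, adjusted p = 0.815 from limma), and no row was found for Cpr72Ec. The difference between retinin and Crys was not tested, since retinin was chosen on these values.

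**Figure D4:**
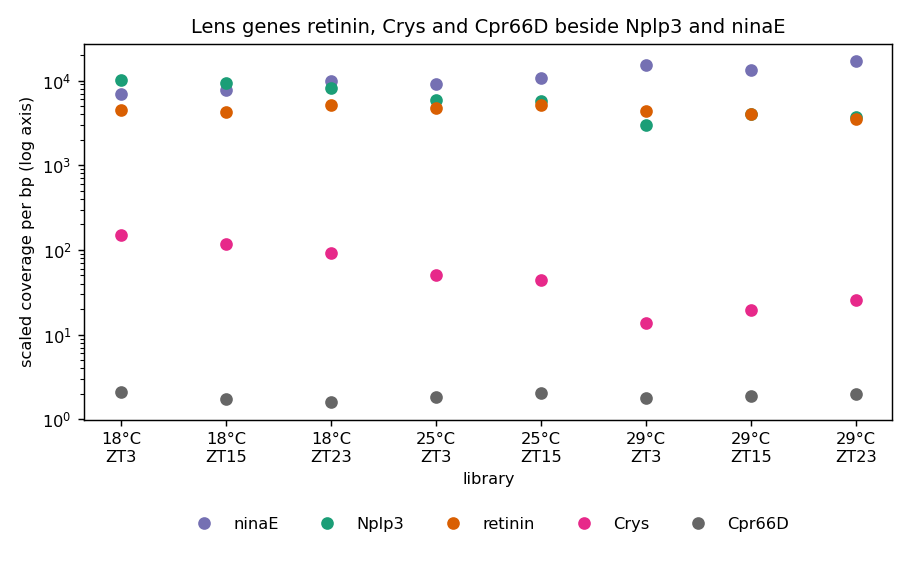
Scaled coverage per bp (log axis) in each of the 8 libraries for the lens genes retinin, Crys and Cpr66D, for Nplp3 and for the opsin gene ninaE. Crys falls from 149 to 13.7 and Nplp3 from 10135 to 2996, retinin and Cpr66D stay nearly level, and ninaE is highest at 29°C.

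The cuticle protein genes of the table were taken as a wider group, by the prefixes of their symbols, since the lens is a form of cuticle. Of 105 listed genes 43 passed the filter, with 46 transcripts, and Cpr66D is among them. In limma 28 transcripts of 26 genes were lower at 29°C than at 18°C and 0 were higher (adjusted p), with a median log2 difference of -0.99, against 18.0% of all transcripts lower. Some of those called lower had a mean under the filter minimum at 29°C, and for these the filter favoured a lower call. Acp1, an adult cuticle protein gene, had mean scaled coverages of 1836 ± 423 (SD, n = 3) and 382 ± 132 (SD, n = 3) at these temperatures, and fell by 2.30 on the log2 scale (adjusted p = 0.00105 from limma). Cpr100A fell by 2.30 (adjusted p = 0.000721 from limma) and Ccp84Ag by 2.59 (adjusted p = 0.00242 from limma), which was the largest change of the group.

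The genes whose profile over the 8 libraries was most like the mean profile of the 7 members were taken from 6630 genes with a mean scaled coverage of at least 5. They were CG15506 (Pearson's r 0.986), Dyrk2 (0.980), CG11668 (0.978), CG6739 (0.977), Cht2 (0.977), CG2157 (0.976), Rgl (0.976), hid (0.976), CG13071 (0.975) and sona (0.974). The mean profile joins members that differ, such as CG13059 with CG13044 (r -0.84) and retinin with CG13059 (r -0.67). Likeness to it is therefore not likeness to each member. Cht2 encodes a chitinase and Dyrk2 a protein kinase, hid is known for its role in cell death, and sona encodes a secreted metalloprotease. Their mean scaled coverage at 18°C and 29°C was 62.7 and 19.7 for Dyrk2, 21.1 and 9.17 for Cht2, 18.8 and 4.64 for hid and 10.1 and 5.85 for CG15506. Only CG13071 among the 10 lies in the stretch around retinin. Of the neighbours and lens genes outside the 10, CG13067 ranked 68, CG13056 ranked 117, CG4962 ranked 156, Crys ranked 160 and Nplp3 ranked 162, while Pdh ranked 2878 (r 0.33).

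Marker genes of other head tissues are given as sums over genes of the mean coverage of their transcripts. Calls among them are between 18°C and 29°C, where limma called 18.0% of all transcripts lower and 11.3% higher. Transcripts of the same gene are not separate observations. The summed coverage of 15 photoreceptor genes was 15105 to 19900.1 at 18°C, 18746 and 20230.0 at 25°C and 24190 to 29524 at 29°C, with 4 transcripts called higher and 4 lower among 33 between 18°C and 29°C and a median log2 difference of -0.089, and ninaE was at 6883 to 10004 at 18°C and 13263 to 17003 at 29°C. Without ninaE the sum of the photoreceptor genes was 8222 to 9896 at 18°C and 10926 to 12575 at 29°C. The sum of 5 glial genes fell from 1557 to 1635 at 18°C to 803 to 937 at 29°C, with 13 of 13 transcripts called lower (5 genes). That of 5 muscle genes fell from 3629 to 4030.2 to 1539 to 1956, with 28 of 29 transcripts called lower (4 genes). Of 21 transcripts of 5 neuronal genes 4 were called lower (1 gene) and 0 higher, with a median log2 difference of -0.054. Of 12 transcripts of eye pigment genes 2 were lower (1 gene) and 3 higher (2 genes), with a median of -0.47. The sum of 7 fat body genes was 44300.0 and 48486 at 25°C and 10180 to 20363 elsewhere. The part of these tissues in the results for the cluster was not tested.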

How the data were processed

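The authors made polyA+ libraries of fly heads and aligned the reads to dm3. The deposited values are the coverage of a transcript, averaged over its bases. The submitters' processing notes name Bowtie2, TopHat and Cufflinks, without roles. Read counts were not used, so the depth behind a value is unknown and no counting interval is given. Another 56 columns without a name were not used.

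All libraries were brought to a common sum of 1000000 and analysed as log2(value + 1), keeping transcripts with a mean of at least 1. Temperature differences were fitted with limma 3.58.1 in R 4.3.3 over all 8 libraries, and time points in a model with temperature, with Benjamini-Hochberg adjustment over all transcripts. Nothing in the labels says that libraries of 1 temperature came from separate cultures, so p-values measure only the spread between these libraries. The fit was tested on simulated data. Tables and plots were made with Python 3.11.15, pandas 2.3.3 and matplotlib 3.10.9.

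The members, lists and tests were chosen with earlier results of these data known. Named genes are all members with a row, at most the 10 largest called neighbours by the difference between 18°C and 29°C, the lens genes, and the 10 non-members most like the mean member profile. Tcs3, the 3 neighbours that were not called, the cuticle genes Acp1, Cpr100A and Ccp84Ag and the opsin gene ninaE were named after their values were seen. Symbols matched 17919 of 18387 transcripts. The Acp prefix of the cuticle list was narrowed to Acp1 and Acp65Aa, because other genes with that prefix encode accessory gland proteins. Coordinates are from BDGP6 (Ensembl release 115), a later build than dm3. Sequences of the members, a list of the family by protein match and promoter motifs were not analysed here. Alternatives were pseudocounts of 0.1 and 5, no filter, quantile normalization, 75th percentile scaling, a minimum mean of 5, a replicate block by time point, and leaving out each library.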

Additional observations from a re-analysis of the deposited data

Results flagged for a closer look

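For 3 members the step from ZT3 to ZT15 had opposite signs at 18°C and 29°C. On the log2(scaled coverage + 1) scale it was -0.24 at 18°C and 0.73 at 29°C for CG13041. For CG13063 it was -0.54 at 18°C and 0.53 at 29°C, and for CG13065 -0.58 at 18°C and 1.25 at 29°C. Each step rests on 1 library per time point, and the difference between the temperatures was not tested. The library of 29°C at ZT15, on the higher side of all 3 steps at 29°C, is the one that stood apart in genes of body tissues.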

How the results depend on the processing

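Between 18°C and 29°C, the 4 members called lower numbered 3 or 4 under every alternative run. With a minimum mean of 5, 0 members were higher, 5 neighbours lower and 0 higher, because fewer genes were tested. Leaving out 1 library at a time gave 7 to 10 neighbours lower, against 10 with all libraries, and 0 to 1 higher. The neighbours lower were 9 with 75th percentile scaling and 11 with quantile normalization. The median log2 difference of the members was -1.48 and -0.63 with pseudocounts of 0.1 and 5, -0.25 without a filter (9 members) and -3.54 with a minimum mean of 5 (4 members), and without single libraries it was -1.44 to -0.92.

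Between 18°C and 25°C, leaving out 1 library gave 0 to 3 members lower and 0 to 7 neighbours lower. The neighbours lower were 2 without a filter, 3 with 75th percentile scaling and 3 with quantile normalization. The median of the members was -0.56 with a pseudocount of 5, -0.29 without a filter and -2.23 with a minimum mean of 5. Between 25°C and 29°C, 1 member was higher (CG13059) with a pseudocount of 5 or 75th percentile scaling and 0 to 1 without single libraries. There, 1 neighbour was lower with a pseudocount of 5, a minimum mean of 5 or 75th percentile scaling and 0 to 1 without single libraries, and the median of the members was -0.84 with a minimum mean of 5. Between time points, the median of the members from ZT15 to ZT23 ranged from -0.99 to 0.18 without single libraries, and that from ZT3 to ZT23 from -0.66 to -0.0018. With a minimum mean of 5, 1 neighbour was higher at ZT23 than at ZT15. The causes of these shifts other than the number of genes tested were not tested.

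With a replicate block by time point, 11 neighbours were lower between 18°C and 25°C, against 5, and the member counts were the same. Replicate numbers follow the accession order. Deviations of libraries at the same time point correlated by 0.096, 0.16 and 0.31 between 18°C and 29°C, 0.35 and 0.26 between 18°C and 25°C and 0.18 and 0.071 between 25°C and 29°C. These were all positive but not all over 0.1, and the main fit did not treat the libraries as pairs. Its p-values and shares of calls therefore ignore the shared time points. With the block, the transcripts called between 18°C and 29°C rose from 2658 to 4005 lower and from 1667 to 2364 higher. Between 18°C and 25°C they rose from 979 to 3139 lower and from 235 to 500 higher. Where 1 library at 25°C was left out, the remaining one was assumed to vary like those of the other temperatures. The unknown depth limits what can be said of CG13040, CG13060 and CG13059, whose coverage is low.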
